A study of Saccharomyces cerevisiae with 4 samples.

Results

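Budding yeast (Saccharomyces cerevisiae) growing at 30 °C was compared with and without nuclear depletion of Hsf1, and RNA was read from 1 library of each. Both libraries came from strain DPY438 with the genotype Hsf1-AA, in which AA stands for anchor-away. One sample was given 1 µM rapamycin for 45 min, and the other was left without it. These are 2 of the 4 libraries of the study. The other 2 came from the same strain after 10 min at 39 °C, with and without rapamycin, and are used below only to set each gene beside its value in heat. The comparison was made over every listed feature with a mean of at least 5 normalised reads across the 4 libraries, which kept 5642 of 7126 features, 5431 of them protein-coding. A ratio is the value with rapamycin over the value without, on the log2(value + 1) scale, and a feature was called higher or lower when it passed 2-fold.

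Hsf1 is an essential transcription factor that binds heat shock elements, arrays of the unit GAA and its reverse complement TTC, and drives genes for cytosolic chaperones both in heat and in unstressed growth. In the anchor-away method a nuclear protein carries one rapamycin-binding domain and an abundant protein that leaves the nucleus carries another, so that rapamycin ties the pair together and the nuclear protein is carried out. Rapamycin is also the classical inhibitor of TORC1, the growth-control kinase complex, and strains built for anchor-away commonly carry a resistant TOR1 allele and lack FPR1, the cell's own rapamycin-binding protein. The labels name the strain and its genotype and say nothing of these alleles. None of the 4 libraries is a rapamycin-treated strain without the Hsf1 tag, so removal of Hsf1 and any other action of rapamycin cannot be told apart here.

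With 1 library a side there is no spread between cultures and no test across genes. Intervals given below are exact conditional binomial 95% intervals of the ratio of 2 read counts, and they cover counting error only. The library with rapamycin held 3231228 reads over listed features, against 1561620 without, so 1 read was worth 0.888 and 1.43 normalised reads. Transfer RNA took 18.3% of reads with rapamycin and 14.3% without, and protein-coding features took 59.5% and 64.7%. FPR1 was listed at 0 in all 4 libraries. HSF1 itself had 107 normalised reads with rapamycin and 157 without, a log2 ratio of -0.54; the method moves the protein and is not aimed at this transcript. MSN2 and MSN4, the pair of general stress transcription factors, had 118 against 126 and 186 against 194. ACT1, the actin gene, had 3607 with rapamycin and 3820 without. Other genes fixed as controls were TOR1 (425 against 519), RPL13A (757 against 616), TAF10 (107 against 154) and ALG9 (100.4 against 142), all inside 2-fold. Alpha-cell genes such as STE3 (373 against 437) and SAG1 (329 against 442) were well read, whereas the a-cell receptor gene STE2 had 14.2 with rapamycin and 22.9 without.

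The heat shock elements of the chaperone genes are shown first, because the results turn on which of these genes were lower with rapamycin in unstressed cells. The 500 bases upstream of each coding start in R64, the RefSeq assembly that sacCer3 names, were searched on both strands for the three-unit element GAANNTTCNNGAA and its other phase TTCNNGAANNTTC. It was found in 89 of 5986 promoters, which is 1.49%, and in 10 of the 20 genes of the Hsf1-target chaperone list. The two-unit form is common, in 35.2% of promoters and 19 of the 20 genes. Capitals mark the element nearest the coding start, joined with any match that overlaps it, read 5′ to 3′ on the strand of the gene. The first 4 sequences belong to list members that were at least 2-fold lower with rapamycin at 30 °C, and the next 6 to members that were not.

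SSA2: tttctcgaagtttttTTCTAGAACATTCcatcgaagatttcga

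SSA1: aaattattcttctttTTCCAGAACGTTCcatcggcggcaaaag

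AHA1: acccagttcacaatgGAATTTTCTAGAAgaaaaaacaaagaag

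STI1: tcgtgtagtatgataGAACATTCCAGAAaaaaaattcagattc

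SSE1: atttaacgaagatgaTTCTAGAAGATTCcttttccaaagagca

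FES1: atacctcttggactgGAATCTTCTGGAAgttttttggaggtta

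SIS1: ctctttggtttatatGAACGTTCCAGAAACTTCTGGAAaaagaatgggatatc

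HSP104: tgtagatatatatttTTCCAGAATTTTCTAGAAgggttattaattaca

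HSP42: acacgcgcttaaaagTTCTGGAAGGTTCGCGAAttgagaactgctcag

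BTN2: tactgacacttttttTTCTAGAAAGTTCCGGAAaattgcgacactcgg

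In R64 these lie at chrXII:97691-97733 (SSA2, minus strand), chrI:141665-141707 (SSA1, minus), chrIV:892559-892601 (AHA1, plus), chrXV:380822-380864 (STI1, plus), chrXVI:352434-352476 (SSE1, minus), chrII:444837-444879 (FES1, minus), chrXIV:619872-619924 (SIS1, minus), chrXII:88306-88353 (HSP104, plus), chrIV:806363-806410 (HSP42, plus) and chrVII:772095-772142 (BTN2, plus). All are outside the genes annotated in R64, and the elements begin between 171 (FES1) and 344 (BTN2 and SIS1) bases upstream of the coding start. HSC82 and YDJ1 have no three-unit match in this window and were among the genes at least 2-fold lower. Among the 72 protein-coding genes that have a three-unit match and at least 50 reads at 30 °C, 5 were lower (SSA2, SSA1, AHA1, ARG82, STI1) and 2 were higher (RPL36B, TAD2), beside 2.01% lower and 2.96% higher of all 4726 such genes with or without a match. A match is a description of these letters only.

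The Hsf1-target chaperone genes lowest with rapamycin at 30 °C were the constitutive SSA2, SSA1 and HSC82, followed by the sorting factor CUR1 and the co-chaperones AHA1, YDJ1 and STI1. Of 20 Hsf1-target cytosolic chaperone genes, all of which were kept, 7 were at least 2-fold lower, 1 was higher by that rule and 12 lay between. The same rule called 4.02% of all kept features lower and 4.70% higher. The list was chosen with earlier results of these data known, so its counts are a description only. The median log2 ratio of the list was -0.69, beside 0.01 over all features, and 16 of the 20 lay below 0. Summed, the list took 0.287% of all reads with rapamycin (Clopper-Pearson 95% interval 0.281 to 0.293%) and 0.868% without (0.853 to 0.882%).

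**Figure D1:**
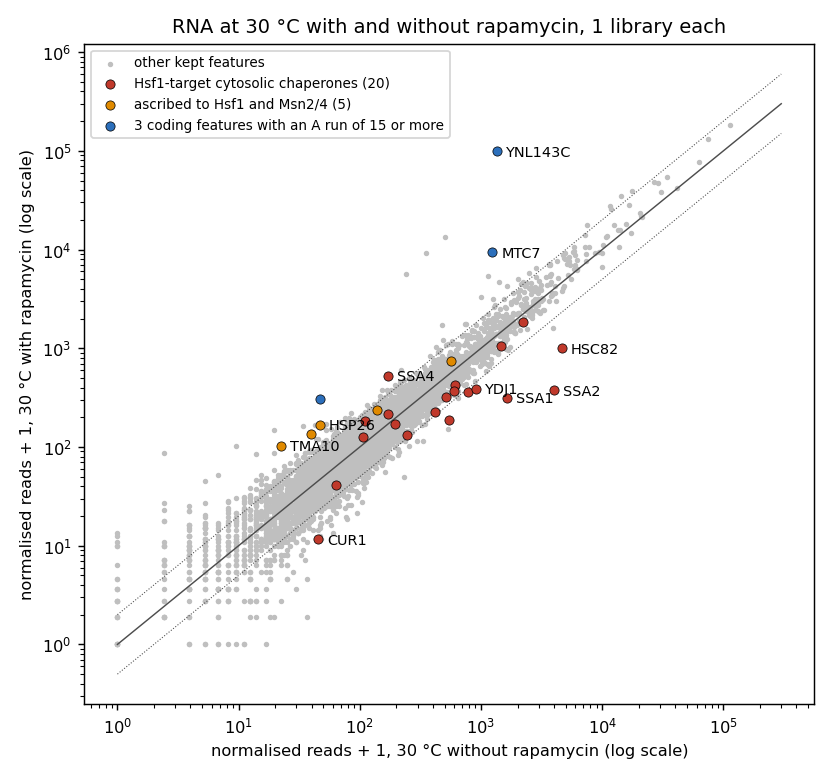
Normalised reads + 1 at 30 °C with rapamycin (vertical, log scale) against without (horizontal, log scale), 1 point per kept feature and 1 library per axis; the solid line marks equal values and the dotted lines 2-fold. SSA2 (374 against 3972), SSA1 (314 against 1628) and HSC82 (1001 against 4621) lie below the cloud at high levels, and YNL143C (99117 against 1355) lies far above it.

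The Hsp70 genes of the SSA subfamily, which fold new and damaged proteins in the cytosol, went in both directions. SSA2 (chrXII:95566-97485) had 374 normalised reads with rapamycin and 3972 without, 10.6-fold lower (9.58 to 11.8), a log2 ratio of -3.41. SSA1 had 314 with rapamycin and 1628 without, 5.16-fold lower (4.59 to 5.85). SSA2 and SSA1 are the copies expressed in unstressed cells. Their coding sequences are 96.4% identical over the alignment, with an identical stretch of 383 bases, so how reads were split between them is uncertain. Their sum does not depend on that split among the pair, and it was 688 with rapamycin and 5600 without, 8.12-fold lower (7.53 to 8.80). SSA4 (chrV:364589-366517), the copy known for its strong induction by stress, had 525 with rapamycin and 169 without, 3.10-fold higher (2.55 to 3.83), a log2 ratio of 1.63. SSA3, the other inducible copy, had 125 and 106, within the counting interval of no difference. Per kilobase of coding sequence, SSA2 had 195 normalised reads with rapamycin and 2069 without, and SSA4 had 272 and 87.5. SSA1 had 163 and 844 per kilobase. As deposited, SSA4 was thus above each of SSA2 and SSA1 with rapamycin and below each without it, but this order with rapamycin rests on the doubted split: the summed value of SSA1 and SSA2, 688, was above the 525 of SSA4.

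The Hsp90 pair was lower in its constitutive copy. HSC82 (chrXIII:632355-634472) had 1001 with rapamycin and 4621 without, 4.61-fold lower (4.31 to 4.94). HSP82, the copy that responds more to heat, had 424 with rapamycin and 612 without, 1.44-fold lower (1.26 to 1.65). The coding sequences are 91.7% identical with an identical stretch of 113 bases, and the summed value of the pair was 3.67-fold lower (3.46 to 3.90). Per kilobase, HSC82 had 473 with rapamycin and 2182 without, and HSP82 had 199 and 287.

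The 4 Hsp90 co-chaperones of the Hsf1-target list were lower too, by less than HSC82 and by more than HSP82. AHA1, which stimulates the Hsp90 ATPase, had 185 with rapamycin and 546 without, 2.95-fold lower (2.49 to 3.52). HCH1, its smaller relative, had 131 and 244, a log2 ratio of -0.90. STI1, the adaptor that joins Hsp70 to Hsp90, had 355 and 783, 2.20-fold lower (1.93 to 2.51). CPR6, a peptidyl-prolyl isomerase that binds Hsp90, had 321 and 518, a log2 ratio of -0.69. None of these 4 was above its value without rapamycin, and AHA1 and STI1 passed 2-fold.

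The J-domain proteins of the Hsf1-target list, which drive the Hsp70 cycle, showed a narrower range. YDJ1, the main cytosolic one, had 389 with rapamycin and 902 without, 2.31-fold lower (2.05 to 2.62). SIS1, essential for viability, had 224 and 417, a log2 ratio of -0.90. APJ1 had 39.98 and 62.9, a log2 ratio of -0.64. Of the nucleotide exchange factors, SSE1 had 1842 with rapamycin and 2206 without, 1.20-fold lower (1.12 to 1.28), and FES1 had 170 and 193, whose interval includes no difference. SSE1 stood well inside 2-fold and is among the best read genes of the list, with 885 normalised reads per kilobase with rapamycin and 1060 without.

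The disaggregation and sequestration factors were split. HSP104, the disaggregase, had 1046 with rapamycin and 1473 without, 1.41-fold lower (1.29 to 1.53). CUR1, a sorting factor for misfolded proteins, had 10.7 and 44.3, 3.89-fold lower with a wide interval (2.08 to 8.89), since it was read only 31 times without rapamycin. BTN2, its paralogue, had 182 with rapamycin and 110.1 without, 1.65-fold higher (1.27 to 2.18). HSP42, the small heat shock protein of unstressed cells, had 213 and 169, 1.26-fold higher (1.01 to 1.59). MBF1, a coactivator also regulated by Hsf1, had 367 and 593, a log2 ratio of -0.69. BTN2 and CUR1 thus lay on opposite sides of 0. Divided by library totals, the median of all ratios moves by -0.35, and HSP42 and SSA3 then fall below 0 while SSA4 and BTN2 stay above it.

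**Figure D2:**
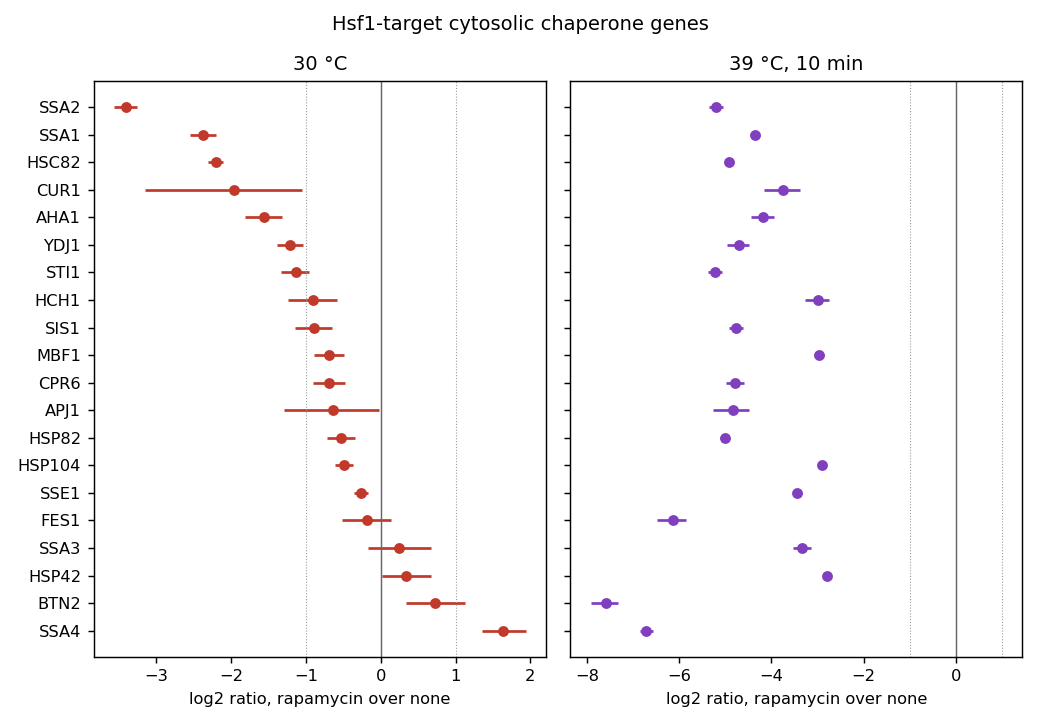
Log2 ratio, rapamycin over none, of the 20 Hsf1-target cytosolic chaperone genes at 30 °C (left) and after 10 min at 39 °C (right); the horizontal scales of the panels differ. Points are values on the log2(value + 1) scale, bars the 95% counting interval of the read ratio, and dotted lines 2-fold; at 30 °C the genes run from -3.41 (SSA2) to 1.63 (SSA4), and at 39 °C all 20 lie below -2.

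The 5 genes listed here as ascribed to both Hsf1 and Msn2/4 stood on the other side. This list too was chosen with earlier results of these data known. The median log2 ratio was 1.78: all 5 members were kept and lay above 0, and 3 of them (60%, beside 4.70% of all features) passed 2-fold. TMA10, a small stress-induced protein, had 101 with rapamycin and 21.45 without, 4.56-fold higher (2.75 to 8.71). HSP26, a small heat shock protein, had 166 and 45.8, 3.58-fold higher (2.49 to 5.46). HSP30, a plasma membrane stress protein, had 135 and 38.6, 3.43-fold higher (2.31 to 5.48). HSP12, a membrane-stabilising stress protein, had 237 and 137, a log2 ratio of 0.78, and UBI4, the polyubiquitin gene, had 744 and 563, a log2 ratio of 0.40. The stress response element AGGGG, the Msn2/4 site, or its reverse complement is in the 500 upstream bases of 4 of these 5 genes and of 34.1% of all promoters. The count of matches did not sort the genes by direction. Among the higher genes SSA4 has 3, HSP26 3, HSP12 5 and TMA10 1, and HSP30 and ATG41 have none. Among those below 0, SSA1, HSP82, APJ1 and MDJ1 have 2 each and HSP104 has 3, and SSA2 and HSC82 have none. The three-unit heat shock element is upstream of 1 of the 5 listed genes, and the two-unit form of 2 (40%, beside 35.2% of all promoters). HSP30, whose ratio is the list's median, has neither a heat shock element nor a stress response element in this window.

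The rest of the general stress genes did not share that size. Of 38 Msn2/4-type general stress genes, 2 were at least 2-fold higher, 2 were lower and the median log2 ratio was 0.25. That is 5.26% each way, near the 4.70% higher and 4.02% lower of all kept features. MSC1 had 186 with rapamycin and 87.2 without, and GRE1, PAI3 and MOH1, the other members past 2-fold, were each read 5 times or fewer without rapamycin. As a share of reads the list took 0.190% with rapamycin and 0.201% without. Among 17 trehalose and glycogen genes the median was 0.34, and GPH1, glycogen phosphorylase, had 458 with rapamycin and 217 without (log2 ratio 1.07). Both medians turn negative when libraries are divided by their totals.

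Other folding systems held 0 to 1 calls in each direction. Of 17 other cytosolic co-chaperones 1 was lower, TAH1, a subunit of the R2TP complex that works with Hsp90, at 35.5 with rapamycin and 80.1 without. Of these 17, 10 lay above 0 and 7 below, from -1.15 (TAH1) to 0.68 (XDJ1, a J-domain protein). Their median of 0.14 turns negative on library totals. Of 11 mitochondrial chaperones 1 was lower, MDJ1, the J-domain protein of the matrix, at 115 with rapamycin and 297 without, 2.58-fold lower (2.07 to 3.26). In the endoplasmic reticulum list of 16, ERV2, a thiol oxidase, was higher (119 against 58.6) and JEM1, a J-domain protein, lower (56.0 against 117). Of 7 ribosome-associated chaperones 1 was lower, BTT1, a subunit of the nascent polypeptide-associated complex, at 11.6 with rapamycin and 27.2 without (log2 ratio -1.17). ZUO1, a J-domain protein (2233 against 1142), and SSB2, an Hsp70 that binds new chains (3613 against 1844), lay just inside 2-fold higher, both with a log2 ratio of 0.97. The CCT chaperonin and prefoldin list of 14 had a median of -0.31 and 1 member past 2-fold, GIM3, a prefoldin subunit, at 195 with rapamycin and 80.1 without.

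The protein degradation genes varied little apart from UBC4 and its thinly read relative UBC5, both ubiquitin-conjugating enzymes. None of 32 proteasome genes passed 2-fold in either direction at 30 °C, and their median was -0.07. RPN4, the transcription factor for those genes, had 123 with rapamycin and 224 without, a log2 ratio of -0.86. UBC4, an E2 enzyme for short-lived and abnormal proteins, had 115 with rapamycin and 330.3 without, 2.87-fold lower (2.31 to 3.60). UBC5, its stress-induced relative, had 4.44 and 17.2. Their coding sequences are 77.2% identical with no identical stretch over 14 bases, and their sum was 2.90-fold lower (2.35 to 3.63). Of the 17 protein quality control genes these were the 2 that passed 2-fold, which is 11.8% beside 4.02% of all features. Among the 16 with at least 50 reads only UBC4 was lower.

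**Figure D3:**
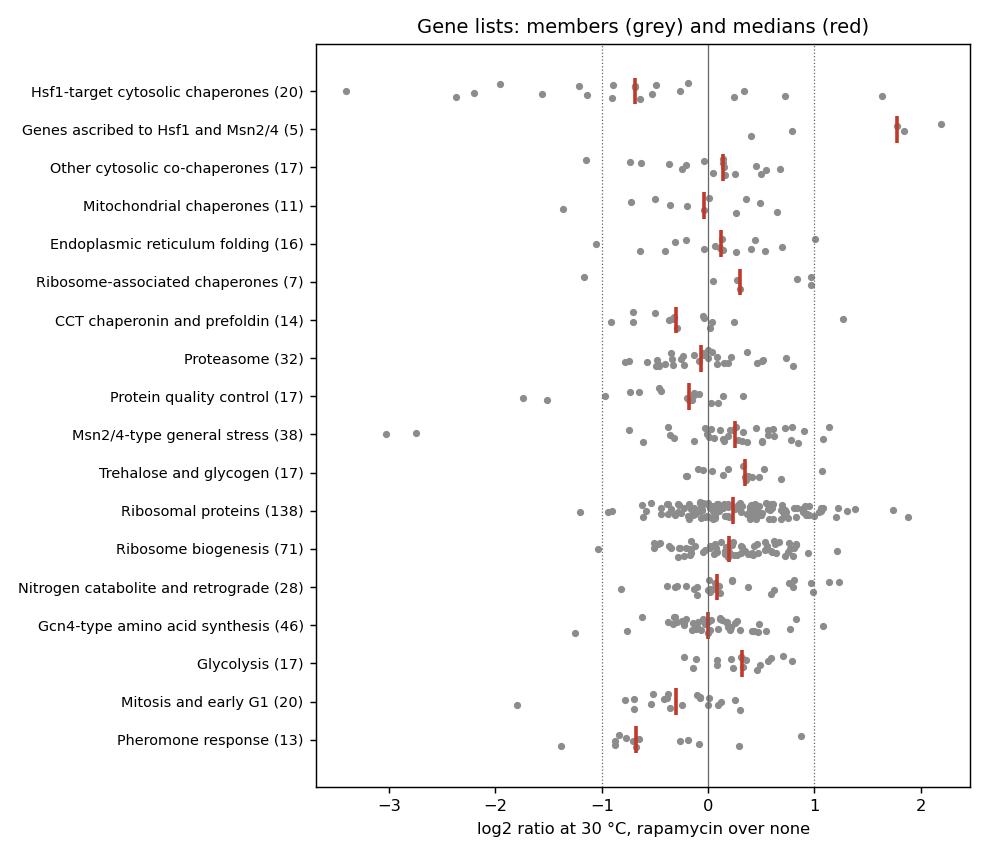
Log2 ratio at 30 °C, rapamycin over none, for the kept members of 18 gene lists (grey points, shifted at random up and down within a row) with each list's median (red); the number kept is in parentheses and dotted lines mark 2-fold. The Hsf1-target list (median -0.69) and the pheromone list (-0.68) lie lowest, and the genes ascribed to Hsf1 and Msn2/4 (1.78) highest.

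Growth genes were examined because TORC1, the target of rapamycin, controls them. Of 138 ribosomal protein genes 10 passed 2-fold upwards (7.25%, beside 4.70% of all features) and 1 downwards, and the median log2 ratio was 0.23. The list took 9.92% of reads with rapamycin and 9.65% without. RPS6A had 1734 with rapamycin and 472 without (1.88), RPP2A, a stalk protein, had 4732 and 1414 (1.74), and RPL35B had 24.9 and 58.6 (-1.20). On library totals RPS6A, RPP2A and RPP1B stay past 2-fold (1.51, 1.38 and 1.01), while RPL11A, RPL13B, RPS23B, RPS12, RPL36B and RPP1A do not, at 0.70 to 0.95. Many of these genes have near-identical copies, so single members are uncertain. Of 71 ribosome biogenesis genes 1 was higher (RRP36), 1 was lower (RRP7) and the median was 0.19, with 1.17% of reads with rapamycin and 1.24% without. Of 28 nitrogen catabolite and retrograde genes kept, which are known to rise when TORC1 is inhibited, DAL3 (88.8 against 37.2) and UGA4 (10.7 against 4.29) were higher, and the median was 0.09. That is 7.14% beside 4.70% of all features, and 1 of the 24 genes with at least 50 reads was higher, DAL3. The 46 Gcn4-type amino acid genes had a median of 0.00, with ARG1 higher (67.5 against 31.4) and SER33 lower (76.4 against 183.0). The medians of the ribosomal, ribosome biogenesis and nitrogen lists turn negative when libraries are divided by their totals.

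Metabolic and defence lists differed in their calls. None of the 17 glycolysis, 25 ergosterol, 13 phosphate, 8 zinc or 11 multidrug resistance genes passed 2-fold. This depends on the scaling, since on library totals the multidrug gene SNQ2 passed it at -1.20. The glycolysis median was 0.32, with ENO1, an enolase, at 1506 with rapamycin and 871 without, and it turns negative on library totals. Of 20 oxidative stress genes GPX2 (16.9 against 52.9), CTA1 (6.22 against 15.7) and OYE3 (2.67 against 7.15) were lower, which is 15% beside 4.02% of all features; 1 of the 17 genes with at least 50 reads was lower, GPX2. Of 27 autophagy genes ATG41 (37.3 against 11.4), ATG16 (20.4 against 7.15) and ATG5 (66.6 against 30.0) were higher, which is 11.1% beside 4.70% of all features. Only 13 of the 27 had at least 50 reads, 2 of these being higher, and 14.1% of all features with under 50 reads were higher. Of 35 respiratory chain genes QCR6, a subunit of complex III, was higher (833 against 382), and of 18 citric acid cycle genes MDH2 was higher (22.2 against 7.15) and PCK1 lower (5.33 against 17.2). None of the 13 citric acid cycle genes with at least 50 reads passed 2-fold. Of 23 iron regulon genes ISU1, the iron-sulfur scaffold, was higher (182 against 87.2). Of 67 mitochondrial ribosomal protein genes 5 were higher and 1 was lower, with a median of 0.03. That is 7.46% and 1.49%, beside 4.70% and 4.02% of all features.

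Among cell cycle genes the lists differed. DSE2, a daughter-cell glucanase made in early G1, had 152 with rapamycin and 532 without (log2 ratio -1.80), and EGT2, also of early G1, had 432 and 745 (-0.79). The median of the 20 mitosis and early G1 genes was -0.30. CLN3, the G1 cyclin that sets cell size, had 76.4 with rapamycin and 157 without (-1.03), and CLB6, an S-phase cyclin, had 17.8 and 40.03. These were the 2 of 21 G1 cyclin and S phase genes past 2-fold; 11 of the 21 lay below 0, and their median of -0.09 becomes 0.00 with at least 50 reads or with a mean of at least 20. In the pheromone response list 11 of 13 genes lay below 0 with a median of -0.68, though only FUS2 passed 2-fold, at 2.67 with rapamycin and 8.58 without. MF(ALPHA)1, the alpha-factor gene, went the other way at 3153 with rapamycin and 1248 without (1.34). None of the 8 core histone genes passed 2-fold, and their median was -0.09.

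Among all 5642 kept features the 2-fold rule called 265 higher and 227 lower. The filter on the mean left out 59 features with a mean of 4 to 5, 12 of them past 2-fold higher and 18 lower, and kept 45 with a mean of 5 to 6, 14 of them higher and 10 lower. A 4-fold rule called 39 higher (0.691%) and 38 lower (0.674%). On library totals the 2-fold counts became 114 higher and 582 lower, and the median of all ratios shifted by -0.35, while the Hsf1-target median stayed 0.71 below that of all features. On protein-coding totals they were 140 higher and 417 lower, and on the total without the 20 highest features 158 and 367. Calls were most frequent at low depth. Of 778 features with under 50 reads in both libraries together 30.3% passed 2-fold, against 7.43% of 2153 features with 50 to 199 reads. With at least 50 reads there were 155 higher, which is 3.19% of 4864, and 101 lower, which is 2.08%. Of the 624 features with at least 1000 reads, 5 were lower, namely SSA2, SSA1, HSC82, YDJ1 and the small nucleolar RNA snR60, and 35 were higher. That is 0.801% and 5.61%, beside 4.02% and 4.70% of all kept features. The median of these 624 was 0.14, so this split depends on the scaling too.

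A count test on the recovered reads was possible only with heat and rapamycin as additive terms over all 4 libraries, and it compares these libraries, not the conditions. The quasi-likelihood test of edgeR, adjusted by Benjamini and Hochberg's method, had 1 residual degree of freedom and takes any difference between the 2 temperatures as noise. It called 26 of 5642 features (0.461%) at an adjusted p under 0.05, 6 of them higher (0.106%) and 20 lower (0.354%). Some of its calls were within 2-fold at 30 °C and far lower at 39 °C, among them APJ1 (-0.64 and -4.84), TAH11 (-0.79 and -3.84), BUB1 (-0.58 and -2.92) and TIP1 (-0.67 and -2.76). Members of the Hsf1-target list made up 7 of the 26: SSA2, SSA1, CUR1, APJ1, YDJ1, AHA1 and HCH1. UBC4, MDJ1 and RPN4 were also among the lower calls, and KRI1, a ribosome biogenesis factor, TOM5, a subunit of the mitochondrial import pore, and RPS6A were among the higher ones.

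The highest ratios belonged to a different kind of feature. YNL143C, an uncharacterised reading frame, had 99117 with rapamycin and 1355 without, 73.1-fold higher, the highest ratio of all kept features. It had 3179 and 2213 at 39 °C. YHR095W (13309.6 against 500.4), YKR040C (9224 against 347), YMR290W-A (5665 against 239) and MTC7 (9351 against 1234) were also among the highest, and YHR095W, YKR040C and YMR290W-A had no entry in the annotation used. These 5 features took 4.76% of all reads at 30 °C with rapamycin and 0.165% without, and 0.256% and 0.146% at 39 °C with and without. They stood apart in the single library with rapamycin at 30 °C.

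The other features at the extremes were thinly read. Of the 12 highest, GAT4, YPR195C, YMR194C-A, GAL2, the galactose permease, and SDH9 had no read without rapamycin, so that only lower bounds of 2.07-fold to 2.90-fold can be given against a floor of 3 reads. YLR296W had 86.2 with rapamycin and 1.43 without, YLR297W had 102.2 and 8.58, and the valine transfer RNA tV(AAC)O had 25.8 and 1.43. Of the 12 lowest, SSA2 was the best read. YLR456W, YBR099C, YJR027W, YNL184C and PAI3 had no read with rapamycin, with bounds of at least 2.68-fold to 5.90-fold lower. YER138W-A had 0.89 with rapamycin and 35.7 without, VLD1 0.89 and 18.6, FYV5 0.89 and 17.2, INP1 1.78 and 21.45, YGL088W 3.55 and 35.7, and YAR009C 2.67 and 28.6. FYV5 lies opposite ADF1, YNL184C and YGL088W overlap other genes, and YJR027W and YAR009C belong to mobile elements, so their reads are uncertain. With at least 50 reads the lowest coding features after SSA2, SSA1 and HSC82 included MIN9 (12.4 against 58.6), BSC1 (17.8 against 77.2), the Ty frame YCL019W (18.7 against 75.8), LSM4 (26.7 against 102.9), MSA2 (15.1 against 57.2), HLR1 (24.9 against 84.4), SLF1 (24.9 against 78.6) and CTM1 (17.8 against 55.8). Among the highest was COS5 (44.4 against 4.29).

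A shared feature of sequence was looked for because these frames are not chaperones. The longest run of A in the coding strand was found for every protein-coding gene with at least 50 reads. Of the features set apart above, this covers YNL143C and MTC7. YHR095W, YKR040C and YMR290W-A had no entry in the annotation used and were not examined. Only 3 genes had a run of 15 or more, and all 3 were at least 2-fold higher at 30 °C. They are shown with the run in capitals, read on the coding strand.

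YNL143C: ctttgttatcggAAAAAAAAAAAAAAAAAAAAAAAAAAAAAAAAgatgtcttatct

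MTC7: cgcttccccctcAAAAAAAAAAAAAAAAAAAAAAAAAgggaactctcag

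YIR018C-A: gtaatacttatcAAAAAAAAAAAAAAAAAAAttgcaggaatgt

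In R64 they lie at chrXIV:357001-357056 (minus strand), chrV:86477-86525 (plus) and chrIX:385629-385671 (minus), within the coding sequence. The runs are 32, 25 and 19 bases long. YIR018C-A had 307 with rapamycin and 45.8 without. Of 1601 genes whose longest run was 1 to 5 bases 3.69% were at least 2-fold higher, of 2855 with 6 to 8 it was 2.56%, of 256 with 9 to 11 it was 1.56%, and of 11 with 12 to 14 it was 1 gene, YLR296W. At 39 °C none of the 3 passed 2-fold, with log2 ratios of 0.52, -0.02 and 0.52. The run was examined after the ratios were seen, and what produced these values was not tested.

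**Figure D4:**
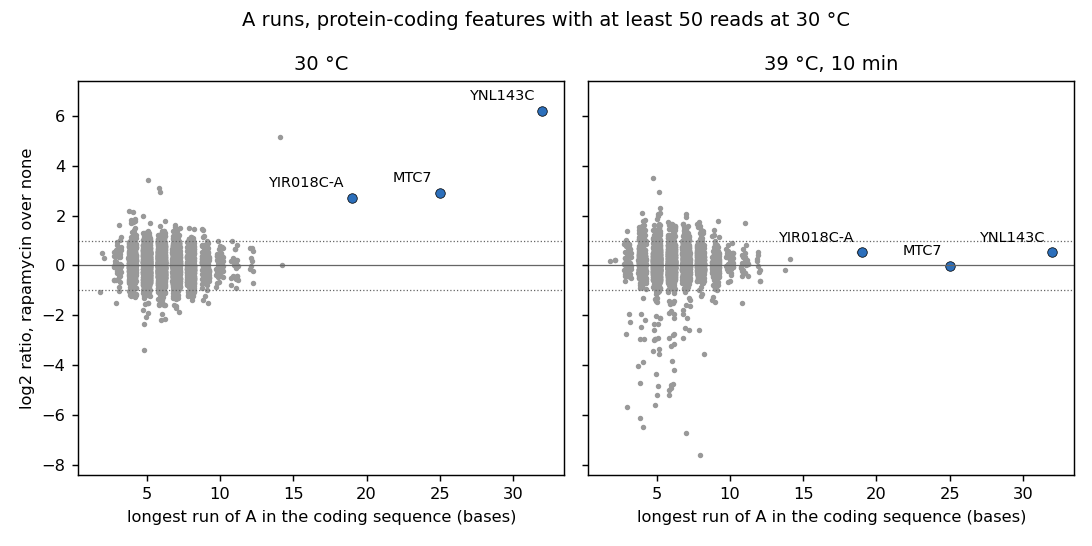
Log2 ratio, rapamycin over none, at 30 °C (left) and after 10 min at 39 °C (right) against the longest run of A in the coding sequence, 1 point per protein-coding gene with at least 50 reads at 30 °C, shifted at random sideways; dotted lines mark 2-fold. The 3 genes with runs of 19, 25 and 32 bases (blue) have log2 ratios of 2.72, 2.92 and 6.19 on the left and none is past 2-fold on the right.

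Gene length also moved with the ratio at 30 °C. The median log2 ratio was 0.30 for the 98 protein-coding genes of at most 300 bases and -0.12 for the 748 over 2500 bases. Spearman's rho between length and ratio was -0.18 at 30 °C and -0.04 at 39 °C across 4726 genes of 1 pair of libraries each, as a description. Short genes among the higher calls include TOM5 (167 against 41.5) and MRPL39, a mitochondrial ribosomal protein (85.3 against 18.6), and TMA10 is short as well. Of 29 transfer RNA features kept, 10 were higher (34.5%, beside 4.70% of all features) and none was lower, with a median of 0.46; at 39 °C 1 was higher and 8 were lower, with a median of -0.87. The part of length and of RNA class in the single-gene ratios was not tested.

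The pair of libraries at 39 °C shares no library with the pair at 30 °C, so the calls can be set side by side. After 10 min at 39 °C all 20 Hsf1-target genes were at least 2-fold lower with rapamycin, beside 2.46% of all kept features, with a median log2 ratio of -4.73, and the list took 0.739% of reads with rapamycin and 8.88% without. Because the list was chosen with earlier results of these data known, this count is no independent support for it. Among the 4864 features with at least 50 reads at 30 °C, 8 were lower at both temperatures: SSA1, SSA2, HSC82, YDJ1, STI1, AHA1, UBC4 and MDJ1. That is 7.92% of the 101 lower at 30 °C and 8.16% of the 98 lower at 39 °C, beside 2.01% and 2.08% of all these features. Across all 4864 the ratios at the 2 temperatures had Pearson's r of 0.07.

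In each of these 8 genes the level with rapamycin differed less between the temperatures, by ratio, than the level without it. SSA2 had 374 with rapamycin and 3972 without at 30 °C, and 332 and 12224 at 39 °C. HSC82 had 1001 with rapamycin and 4621 without at 30 °C, and 728 and 21984 at 39 °C. STI1 had 355 with rapamycin and 783 without at 30 °C, and 362 and 13478.5 at 39 °C. The closest to an exception was UBC4, with 115 and 330.3 at 30 °C and 246 and 949 at 39 °C. YDJ1 was lower at 39 °C than at 30 °C with rapamycin, with 389 and 902 at 30 °C, and 149 and 3919 at 39 °C.

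A group of 10 features was higher by the 2-fold rule at 30 °C and lower by it at 39 °C. It holds SSA4, HSP26, HSP30, TMA10, ATG41, BSC5, TYE7, AEP3, CAL4 and HPA2, which is 6.45% of the 155 higher at 30 °C and 10.2% of the 98 lower at 39 °C, beside 2.01% and 3.19% of all these features. SSA4 had 525 with rapamycin and 169 without at 30 °C, and 402 and 42107 at 39 °C. HSP26 had 166 with rapamycin and 45.8 without at 30 °C, and 2149 and 12044 at 39 °C. ATG41, a gene of selective and bulk autophagy, had 37.3 with rapamycin and 11.4 without at 30 °C, and 42.3 and 2225 at 39 °C. With rapamycin SSA4 and ATG41 thus differed by less than 2-fold between the temperatures, while HSP26 was higher at 39 °C. The opposite pattern, lower at 30 °C and higher at 39 °C, was shown by 4 features (CLN3, YBR191W-A, PRM7 and KEI1), 3.96% of the 101 lower at 30 °C. Higher at both were 7 features (YGL188C-A, SPC24, TRI1, KRI1, RPS6A, RPL36B and RPL11A), 4.52% of the 155 higher at 30 °C. Of all 4864 features 4.13% were higher at 39 °C.

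**Figure D5:**
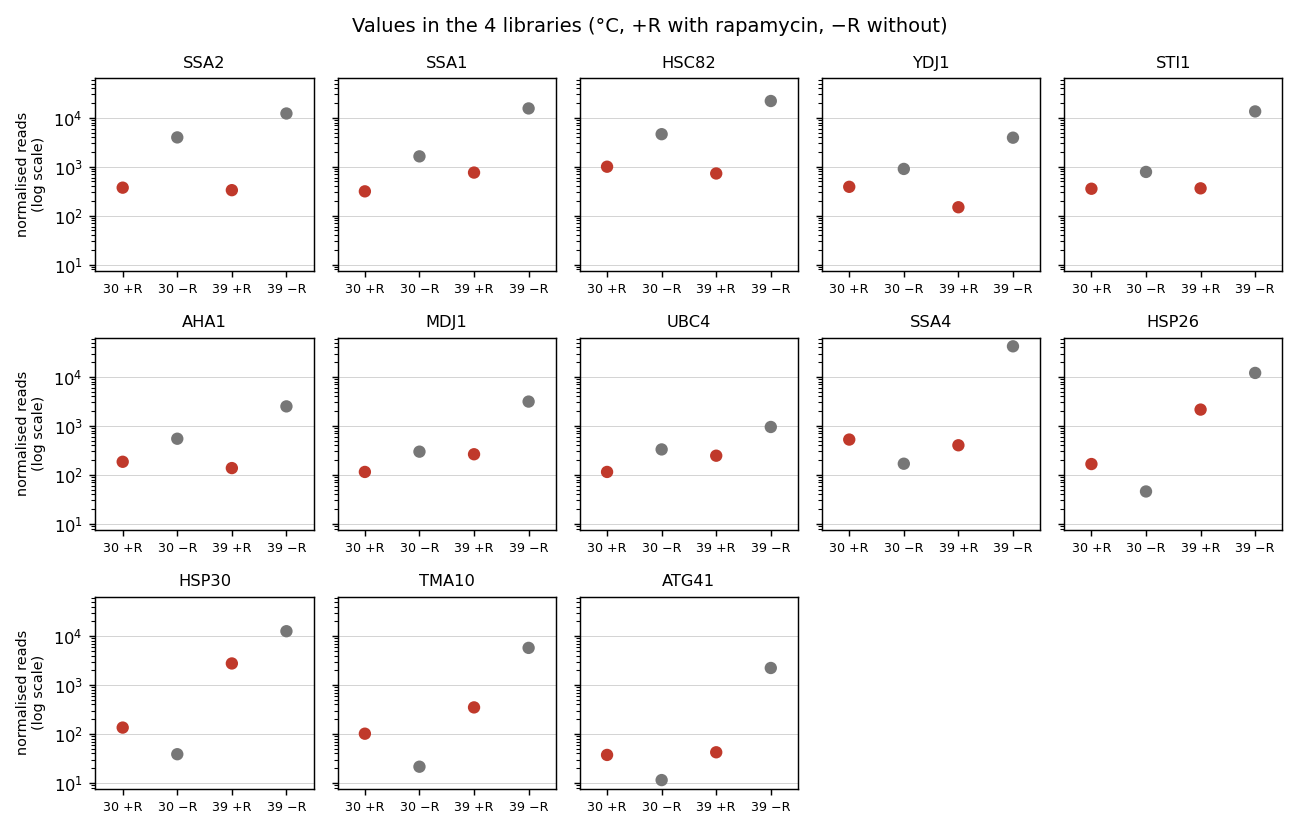
Normalised reads (log scale) of 13 genes in the 4 libraries, in the order 30 °C with rapamycin, 30 °C without, 39 °C with and 39 °C without (+R, red, with rapamycin; −R, grey, without); each point is 1 library. SSA2 to UBC4 are lower with rapamycin at both temperatures, and SSA4 to ATG41 are higher with rapamycin at 30 °C and lower at 39 °C, as for SSA4 at 525, 169, 402 and 42107.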

How the data were processed

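RNA of 4 yeast libraries, 1 per group, was compared. Per the submitters' processing notes, TopHat, HTSeq and sacCer3 were used, with no versions given. The deposited table holds signal, meaning read counts of genes scaled by 1 factor per library: 100% of nonzero values in each library are a whole number of steps, within 0.0055, so reads were recovered. The sources used here do not give how the authors made the factors, whether counting used strand or whether ribosomal RNA was depleted. The 28 mitochondrial Q features and 12 rRNA features all stand at 0.

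Ratios used log2(value + 1) and a 2-fold rule, after features with a mean under 5 were left out. Intervals are exact conditional binomial at 95%, and no molecular identifiers are reported, so they cover counting error only. Names, coordinates and sequences come from RefSeq R64, which 6160 of 7126 features matched. edgeR 4.0.16 (R 4.3.3) ran on the recovered reads; Python 3.11.15, pandas 2.3.3, scipy 1.17.1 and Biopython 1.88 did the rest, and the scripts were tested on simulated data. Whether the libraries are separate cultures is not stated.

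Genes named are all Hsf1-target members, fixed controls, the 12 highest and 12 lowest features, well-read features among the highest and lowest, and for the other lists members past 2-fold or with the largest change; further genes were named after their values were seen. Members and lists were chosen with earlier results of these data known.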

Additional observations from a re-analysis of the deposited data

Results flagged for a closer look

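The following 14 features had at least 50 reads at 30 °C and passed 2-fold in opposite directions with rapamycin at 30 °C and after 10 min at 39 °C. The value given is the log2 ratio at 30 °C minus that at 39 °C. With 1 library per group the difference was not tested. Higher at 30 °C and lower at 39 °C were SSA4 (8.34), ATG41 (7.31), TMA10 (6.22), HPA2 (4.47), HSP26 (4.32), HSP30 (3.97), BSC5 (3.66), TYE7 (2.89), AEP3 (2.63) and CAL4 (2.39). Lower at 30 °C and higher at 39 °C were YBR191W-A (-2.93), KEI1 (-2.56), CLN3 (-2.48) and PRM7 (-2.30).

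CLN3 had 76.4 with rapamycin and 157 without at 30 °C, and 222 and 81.0 at 39 °C. TYE7, a transcription factor for glycolytic genes, had 104 and 48.6 at 30 °C, and 165 and 580.2 at 39 °C. HPA2, an acetyltransferase gene, had 148 and 18.6 at 30 °C, and 16.3 and 49.5 at 39 °C. KEI1, a subunit of inositol phosphorylceramide synthase, had 32.0 and 95.8 at 30 °C, and 67.2 and 33.0 at 39 °C.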

How the results depend on the processing

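The count of features at least 2-fold higher, 265, became 114 on library totals, 140 on protein-coding totals, 158 on the total without the 20 highest features, and 155 with at least 50 reads at 30 °C. The count at least 2-fold lower, 227, became 582, 417, 367 and 101 in the same order, 149 with a pseudocount of 5, 348 with a mean of at least 1 and 408 with no filter. edgeR called 6 higher and 20 lower for an effect over all 4 libraries, which is another quantity than these 30 °C counts. The share of higher calls was 53.9%, against 16.4%, 25.1% and 30.1% on the first 3 scalings and 53.6% with TMM. The median of the Hsf1-target list lay at -1.05 on library totals and between -1.05 and -0.66 in all settings run. No result with a call changed its direction, but sizes moved. On library totals 124 named ratios and list medians moved further than their counting interval reaches to either side, and 140 did not. Higher calls that fell inside 2-fold there include GPH1 (0.71), DAL3 (0.88), GIM3 (0.91), QCR6 (0.76), ISU1 (0.69) and ERV2 (0.65). SSA4 (1.27), HSP26 (1.48), HSP30 (1.42), TMA10 (1.84) and ATG41 (1.28) stayed past it. Settings with at least 50 reads and without genes under 500 bases were chosen after seeing the data. No paired analysis was possible because each group has 1 library, and for the same reason none could be left out. Depth limits features with under 50 reads most.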

Other observations

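Features of transposable elements were lower with rapamycin at 30 °C in 12 of 23 kept (52.2%) and higher in 1, with a median log2 ratio of -1.09. Summed, the 23 were read 1887 times with rapamycin and 1318 times without, where 1 read was worth 0.888 and 1.43 normalised reads. The summed value was thus lower by much less than the median feature. Of all kept features 4.02% were lower, and 16.2% of those with under 50 reads. Only 9 of the 23 had at least 50 reads, 2 of these being lower, and their many near-identical copies make single values uncertain.

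YLR456W had no read with rapamycin at 30 °C and 15.7 without; set against a floor of 3 reads in the library with rapamycin, that is at least 5.90-fold lower. LSM4, a subunit of the U6 small nuclear RNA complex, had 26.7 with rapamycin and 102.9 without. TPM1, tropomyosin, had 1220 and 483, and FPR3, a nucleolar relative of FPR1, had 1019 and 422.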
